A study of Mus musculus with 12 samples.

Results

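The activator protein 1 (AP-1) family was followed in macrophages of regenerating mouse muscle through 10 genes. They were chosen by symbol, with earlier results of these data known, and are Fos, Fosb, Fosl1, Fosl2, Jun, Junb, Jund, Atf3, Batf and Maff. Each symbol matched 1 of the 55414 Ensembl gene IDs of the count table, and 10 of 10 were among the 14310 genes tested. AP-1 is a dimer of basic leucine zipper proteins. Fos proteins pair with Jun proteins and do not bind DNA as homodimers, Jun proteins pair with either, and Atf, Batf and small Maf proteins join or compete with them. The dimers bind short palindromic DNA elements, and many of their genes are immediate-early genes, switched on within minutes by mitogen-activated protein (MAP) kinase signalling. In macrophages AP-1 is known for its part in the transcription of cytokines, chemokines and matrix-degrading enzymes, and Atf3 and Junb also shape how strongly inflammatory genes respond.

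The 12 RNA-seq libraries came from macrophages of C57BL6J wild type males, 8 to 12 weeks old. There were 3 libraries for each of 4 times after injury, which are 1, 2, 4 and 7 dpi (days post injury). All mice carried the same injury, hindlimb ischemia by ligation and removal of the femoral artery, so no uninjured group enters any comparison and 1 dpi is the earliest level. Calf muscle was digested with collagenase and dispase for 1 h at 37 °C, and CD45+CD11b+F4/80+CD64+ cells were sorted. This gate can also hold macrophages from blood inside the muscle. Whether mice were pooled for a library is not given in the sources used here. The p-values therefore rest on the spread among libraries of the same day, which the main fit estimated over all 4 days together. Part or all of that spread may be technical. In a bulk library, fewer cells of a type and less RNA per cell cannot be told apart.

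Total counts were 19528316 to 33599472 per library, of which 1 gene without a symbol took 14.8% to 55.7%. Its share was 52.9% to 55.7% at 1 dpi and 14.8% to 30.1% at 7 dpi. The scaling factors of edgeR (TMM) were 0.652 to 0.725 at 1 dpi and 1.35 to 1.70 at 7 dpi. Library make-up and scaling thus differed with the day in the comparison of 7 with 1 dpi. All 8 macrophage markers, among them Adgre1 (F4/80) and Fcgr1 (CD64), were detected in every library, and their summed level was 10115 to 14821 CPM (counts scaled to library size with edgeR's TMM factors) at 7 dpi, against 5657 to 6766 CPM at 1 dpi. By the thresholds given below, 4 of the 8 were called higher and 2 lower between 7 and 1 dpi, so the sum does not describe each marker. Summed over 10 neutrophil markers, the level was 43.5 to 52.7 CPM at 7 dpi, against 131 to 204 CPM at 1 dpi, and the granule gene Camp was at 0 in every library. The 6 fibroblast markers summed to 409 to 831 CPM at 7 dpi, against 14.4 to 50.6 CPM at 1 dpi, and the 8 muscle fibre markers to 38.1 to 100.02 CPM, against 5.35 to 15.1 CPM. Their part in the results below was not tested.

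The promoters of 4 members are shown because they hold the matches to a cyclic AMP response element (CRE), to its core or to a variant of it nearest to the start. The Fos and Jun promoters are known to respond to signalling through such elements. Each line gives the RefSeq window of 300 bases (250 before and 50 after the annotated start, GRCm38.p6), written along the gene's strand, with the matched letters in capitals. In Fos (chr12:85473640-85473939, plus strand) the capitals mark the CRE core TGACGT and the TATA box TATAAA. In Jun (chr4:95052173-95052472, minus strand) they mark TGACATCA, a match to TGACNTCA, in Atf3 (chr1:191183284-191183583, minus strand) the CRE core read on the opposite strand, and in Maff (chr15:79347270-79347569, plus strand, the second of its 3 annotated starts) the whole CRE.
Fos: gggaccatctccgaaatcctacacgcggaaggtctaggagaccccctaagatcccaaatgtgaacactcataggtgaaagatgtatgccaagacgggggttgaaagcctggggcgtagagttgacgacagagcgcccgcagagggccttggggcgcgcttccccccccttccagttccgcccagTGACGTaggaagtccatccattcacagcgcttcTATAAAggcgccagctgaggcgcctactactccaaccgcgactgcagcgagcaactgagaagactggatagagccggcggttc
Jun: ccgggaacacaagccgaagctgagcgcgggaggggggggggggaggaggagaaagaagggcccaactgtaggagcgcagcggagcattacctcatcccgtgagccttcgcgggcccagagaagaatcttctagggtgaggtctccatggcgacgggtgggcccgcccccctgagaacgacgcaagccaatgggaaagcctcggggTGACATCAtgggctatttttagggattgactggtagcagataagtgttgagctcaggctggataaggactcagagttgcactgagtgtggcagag
Atf3: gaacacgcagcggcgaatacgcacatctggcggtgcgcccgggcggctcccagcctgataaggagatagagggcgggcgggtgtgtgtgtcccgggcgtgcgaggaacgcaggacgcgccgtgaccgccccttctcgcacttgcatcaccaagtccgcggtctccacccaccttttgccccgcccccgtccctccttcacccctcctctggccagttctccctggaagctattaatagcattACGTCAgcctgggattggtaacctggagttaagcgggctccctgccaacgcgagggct
Maff: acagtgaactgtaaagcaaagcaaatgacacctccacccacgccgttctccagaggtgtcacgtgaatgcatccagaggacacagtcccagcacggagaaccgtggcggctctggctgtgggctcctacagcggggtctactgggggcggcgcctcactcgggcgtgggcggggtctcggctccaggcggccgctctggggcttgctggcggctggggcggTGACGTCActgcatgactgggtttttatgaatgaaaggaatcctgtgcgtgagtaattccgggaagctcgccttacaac

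Windows were found for 9 of the 10 members, and Maff had 3. Counted over all 32851 RefSeq windows of this length and both strands, TGACGTCA stood in 1.79%, TGACGT in 7.51%, TGACNTCA in 8.83% and TATAAA in 13.6%. Of the 9 members, 1 held TGACGTCA (Maff), 4 held TGACGT (Fos, Atf3, Batf and Maff), 2 held TGACNTCA (Jun and Maff) and 2 held TATAAA (Fos and Junb). TGACGTCA contains TGACGT on both strands and is itself a TGACNTCA, so these matches overlap in Maff. The element of AP-1 itself, the TRE (TGACTCA or TGAGTCA), stood in 5.20% of all windows and the CArG box of serum response factor in 1.63%, and no member's window held either. A match describes letters only and does not show that a factor binds there.

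**Figure D1:**
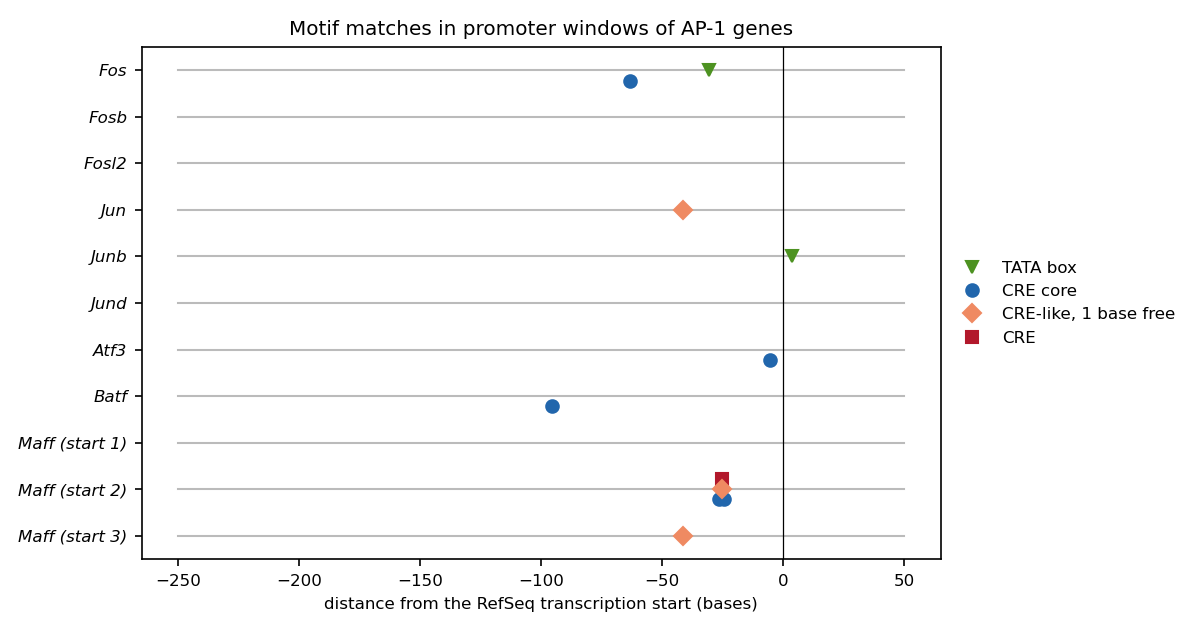
Matches to 4 motifs in the RefSeq promoter windows of 9 AP-1 genes (rows, 3 starts for Maff), by distance from the annotated transcription start in bases (x-axis). The CRE core of Fos lies 66 to 61 bases before the start, the CRE-like match of Jun 45 to 38 bases before it and the CRE of Maff 29 to 22 bases before it.

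Levels of different members are compared as CPM per kb of exonic length. On that scale Fos and Junb stood far above the other members on every day. Junb averaged 570 ± 89.1 and Fos 1054 ± 151 CPM per kb at 7 dpi, against 913 ± 107 and 634 ± 86.5 CPM per kb at 1 dpi (SD, n = 3 each). Among 52133 genes with a length, Fos ranked 13 to 17 in the 7 dpi libraries, against 28 to 46 at 1 dpi, while Junb ranked 24 to 32, against 21 to 23. Junb lay above Fos without overlap at 1 dpi, the ranges of both overlapped at 2 and 4 dpi, and Fos lay above Junb without overlap at 7 dpi.

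Below this pair, the order per kb at 1 dpi was Atf3 (149), Jun (96.6), Fosl2 (45.3), Fosb (33.9), Jund (26.4), Maff (14.3), Batf (3.42) and Fosl1 (1.46 CPM per kb). Fosb and Jund overlapped in range there, and so did Jund and Maff. The order at 7 dpi was Atf3 (178), Jun (157), Jund (71.5), Fosb (52.4), Fosl2 (27.0), Maff (4.30), Batf (3.93) and Fosl1 (0.0139 CPM per kb). Each neighbour from Atf3 to Fosl2 overlapped with the next at 7 dpi, as did Maff and Batf, so that order is not separated by the replicates.

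The balance between these 2 most abundant transcripts is given by day, and no comparison of their ratio passed the adjusted test. As a share of the summed CPM per kb of the 10 members, Fos took 33.0% ± 3.89, 37.6% ± 3.45, 47.8% ± 4.58 and 50.1% ± 2.91 on days 1, 2, 4 and 7 (SD, n = 3 each). Junb took 47.6% ± 4.17, 40.5% ± 2.97, 33.5% ± 3.23 and 27.0% ± 1.26 on the same days. The ratio of Fos to Junb per kb does not depend on the scaling of the libraries. It was 0.562, 0.816 and 0.727 at 1 dpi, 1.07, 0.972 and 0.772 at 2 dpi, 1.22, 1.77 and 1.35 at 4 dpi, and 1.97, 1.77 and 1.82 at 7 dpi. The 3 ratios at 7 dpi lay above all those at 1 and 2 dpi, and the geometric mean was 2.67-fold higher at 7 dpi than at 1 dpi. Over the 4 comparisons, the exact permutation test (two-sided, n = 3 each) gave p = 0.1 for 7 against 1 dpi and for 4 against 2 dpi, the smallest p it can give, and 0.2 for the other pairs, with an adjusted p of 0.2 for each.

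**Figure D2:**
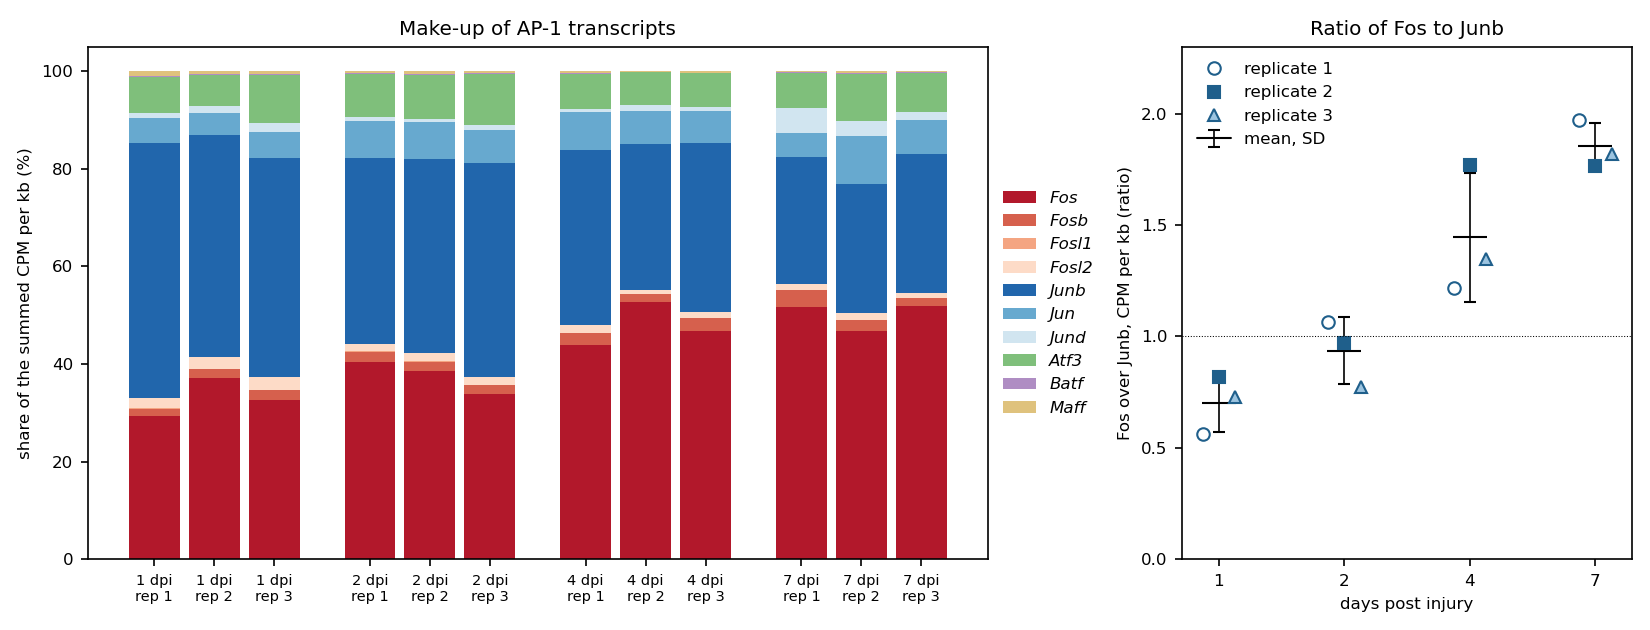
Left, share of each member in the summed CPM per kb of the 10 members (y-axis, percent) in each library (x-axis). Right, ratio of Fos to Junb per kb (y-axis) by days post injury (x-axis), with points for libraries and bars for mean and SD, where the 7 dpi libraries sit between 1.77 and 1.97 and the 1 dpi libraries between 0.562 and 0.816.

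Within the Jun family alone, Junb held 88.0% ± 1.62, 83.2%, 80.8% and 72.1% ± 4.96 of the summed CPM per kb on days 1, 2, 4 and 7. Jun took 9.37%, 15.3%, 16.9% and 19.1%, and Jund 2.60%, 1.47%, 2.31% and 8.74% ± 4.94. Fos held 88.7% ± 1.36 to 93.2% of the Fos family, and Fosl2 took 6.38%, 4.02%, 2.40% and 2.35% on the 4 days. The shares rest on the annotated exonic lengths, of which that of Fosl2 is the longest (9680 bases) and that of Batf the shortest (1406 bases). Of these bases, 57.2% in Fosl1 and 52.6% in Jund are shared with a gene on the opposite strand. How reads there were assigned is not given, so the levels per kb and shares of Fosl1 and Jund may be too low.

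Members were then compared between days on their own scale, in TMM-normalised CPM, with edgeR's quasi-likelihood F test over all 14310 genes. A gene was called at a false discovery rate (FDR, the adjusted p) under 0.05 and an absolute log2 fold change (log2FC, later over earlier day) above 1. Between 2 and 1 dpi, 0 members were called higher, where 5.09% of all genes tested were, and 2 were called lower (Jund and Maff), where 3.97% of all genes were. Between 4 and 2 dpi, 0 were called higher (8.02% of all genes) and 1 lower (Fosl1, 3.88% of all genes). Between 7 and 4 dpi, 1 was called higher (Jund, 7.44%) and 1 lower (Fosl1, 5.2%), and between 7 and 1 dpi 1 higher (Jund, 19.7%) and 2 lower (Fosl1 and Maff, 14%). At an unadjusted p under 0.05, edgeR had 0 members higher between 2 and 1 dpi and 1 between 4 and 2 dpi, and DESeq2 and limma-voom also called 0 in both. The median log2FC of the 10 members was -0.63 between 2 and 1 dpi, -0.02 between 4 and 2 dpi, 0.54 between 7 and 4 dpi and 0.23 between 7 and 1 dpi, beside 0.01, 0.04, -0.03 and 0.16 over all genes.

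**Figure D3:**
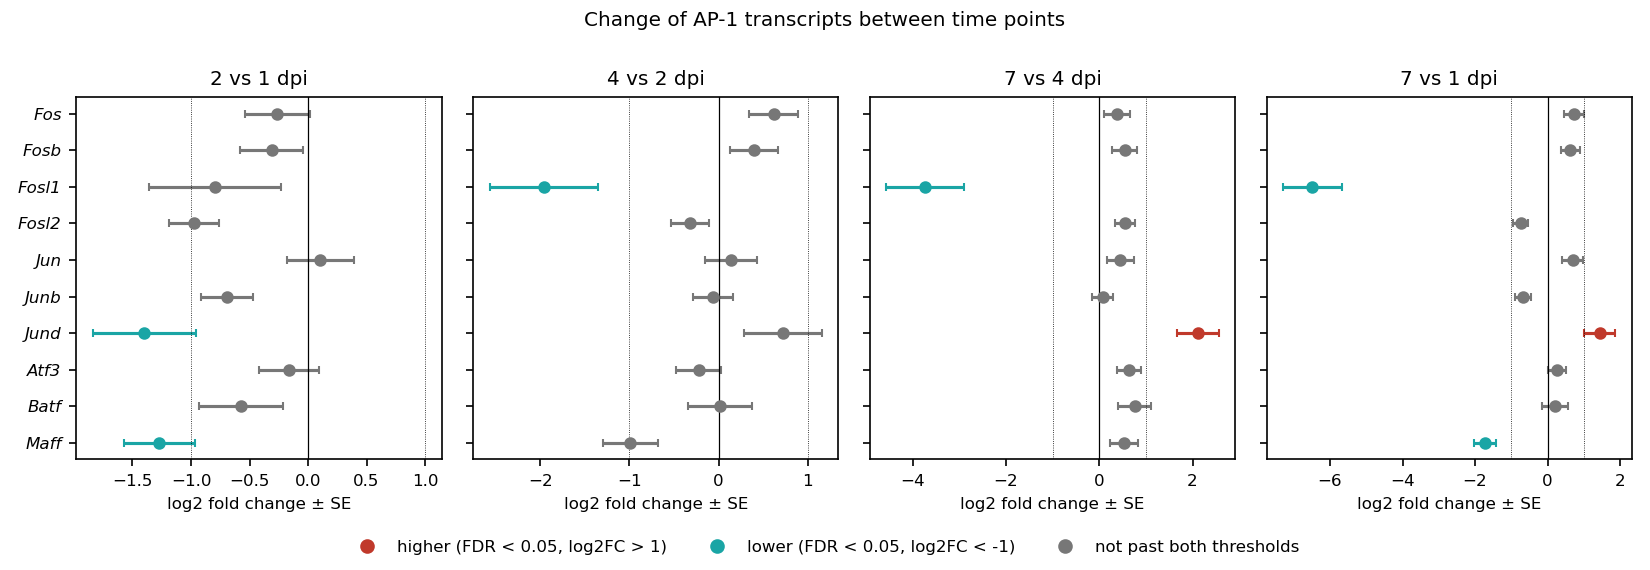
Log2 fold change (x-axis, later over earlier day, with SE from edgeR) of the 10 members (rows) in 4 comparisons, with red for genes called higher, turquoise for genes called lower and grey for the rest. The x-axes differ between panels, and Fosl1 reaches -6.48 between 7 and 1 dpi while the other members stay between -1.73 and 1.44 there.

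Fos encodes the c-Fos subunit, the classical product of the immediate-early response. It measured 1356, 1725 and 1391 CPM at 1 dpi, 1413, 1245 and 1072 CPM at 2 dpi, 1181, 2920 and 1614 CPM at 4 dpi, and 2608, 2753 and 2078 CPM at 7 dpi. Every 7 dpi library lay above every 1 dpi library, while 4 dpi replicate 2 alone exceeded the 7 dpi values. The log2FC of Fos between 7 and 1 dpi was 0.73 (SE 0.28, adjusted p = 0.0386, edgeR), past the FDR and short of the fold threshold. The adjusted p was between 0.013 and 0.0843 with 1 library left out, and it missed 0.05 without 1 dpi replicate 1 or 3, 2 dpi replicate 2, 4 dpi replicate 3, or 7 dpi replicate 1 or 2.

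Fosb encodes FosB, whose truncated splice form ΔFosB is known from long-lasting stimulation, and gene counts do not separate the forms. Its levels were 178, 221 and 234 CPM at 1 dpi, 189, 164 and 159 CPM at 2 dpi, 186, 243 and 243 CPM at 4 dpi, and 464, 348 and 171 CPM at 7 dpi. The 7 dpi libraries were spread on both sides of those at 1 dpi, and replicate 3 lay below all 3 of them. The log2FC between 7 and 1 dpi was 0.63 (SE 0.27, adjusted p = 0.0634, edgeR). It was 0.30 without 7 dpi replicate 1 (adjusted p = 0.352) and 0.96 without replicate 3 (adjusted p = 0.00119), so the FDR was met or missed with the choice of library.

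Fosl1 encodes Fra-1, a Fos protein that lacks the transactivation domain of c-Fos and is known from invasive and wound-edge cells. It was the member with the lowest level per kb, at 2.28, 4.02 and 2.58 CPM at 1 dpi, 1.43, 1.74 and 1.97 CPM at 2 dpi, 0.786, 0.133 and 0.351 CPM at 4 dpi, and 0.054, 0.0308 and 0 CPM at 7 dpi. No library overlapped with an earlier day's. The 3 libraries of a day held 183, 128, 37 and 3 counts in all, and the 3 counts at 7 dpi gave a ratio to 1 dpi of 0.00918 (exact 95% interval 0.00188 to 0.0273, counting error only). The interval takes each count as a separate fragment, so it is too narrow if both mates of a pair were counted. By edgeR, Fosl1 fell between 4 and 2 dpi (log2FC -1.96, SE 0.61, adjusted p = 0.0316), between 7 and 4 dpi (-3.73, SE 0.83, adjusted p = 0.00537) and over the whole course (7 against 1 dpi, adjusted p = 1.03e-05). The fitted log2FC of -6.48 for the last depends on the prior count. The call between 4 and 2 dpi was lost without 1 dpi replicate 2, any 2 dpi replicate, or 4 dpi replicate 2 or 3, with adjusted p up to 0.125, and without 4 dpi replicate 1 the log2FC was -2.80. Leaving out 4 dpi replicate 1 also gave a log2FC of -2.91 between 7 and 4 dpi. Leaving out 7 dpi replicate 1 gave -4.49 between 7 and 4 dpi and -7.23 between 7 and 1 dpi. In the annotation 57.2% of the exonic bases of Fosl1 are shared with Ccdc85b on the opposite strand (61 to 301 counts per library), and the libraries do not mark the strand.

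Fosl2 encodes Fra-2, the other Fos protein without that domain. It reached 390, 454 and 471 CPM at 1 dpi, 225, 230 and 216 CPM at 2 dpi, 163, 181 and 194 CPM at 4 dpi, and 250, 352 and 183 CPM at 7 dpi. All 9 later libraries lay below the lowest 1 dpi library. Between 2 and 1 dpi the log2FC was -0.97 (SE 0.21, adjusted p = 0.00634, edgeR), which passed the FDR and missed the fold threshold by a small margin. It was -1.04 without 1 dpi replicate 1 and -1.01 with RLE factors or DESeq2, and the gene was then called. Between 7 and 1 dpi it was -0.75 (SE 0.21, adjusted p = 0.00831).

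Jun encodes c-Jun, the partner of Fos proteins that is activated by Jun N-terminal kinases. It had 324, 289 and 311 CPM at 1 dpi, 363, 336 and 294 CPM at 2 dpi, 281, 510 and 304 CPM at 4 dpi, and 333, 787 and 381 CPM at 7 dpi. Each 7 dpi library exceeded each 1 dpi library, but 2 of the 3 did so by little. The log2FC between 7 and 1 dpi was 0.70 (SE 0.29, adjusted p = 0.0559, edgeR). It was 0.24 without 7 dpi replicate 2 (adjusted p = 0.411), 0.93 without replicate 1 (adjusted p = 0.0167) and 0.87 without replicate 3 (adjusted p = 0.0264).

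Junb encodes JunB, a weaker activator than c-Jun that is needed for part of the macrophage response to endotoxin. Its libraries gave 2363, 2067 and 1873 CPM at 1 dpi, 1298, 1253 and 1359 CPM at 2 dpi, 950, 1615 and 1171 CPM at 4 dpi, and 1293, 1525 and 1116 CPM at 7 dpi. As with Fosl2, the 3 libraries of 1 dpi were higher than all 9 later ones. The log2FC was -0.69 between 2 and 1 dpi (SE 0.22, adjusted p = 0.0519, edgeR) and -0.68 between 7 and 1 dpi (SE 0.22, adjusted p = 0.0183), and the second of these passed the FDR only. This second change missed the FDR with upper-quartile factors (adjusted p = 0.0864) and without 1 dpi replicate 1 or 2 or 7 dpi replicate 3 (adjusted p up to 0.104). The first met it with, among others, limma-voom (adjusted p = 0.039), DESeq2 (0.00769) and the 6 libraries of 1 and 2 dpi alone (0.00116, edgeR). It missed it with, among others, upper-quartile factors (0.0631) and without any single library of 1 or 2 dpi (adjusted p up to 0.176).

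Jund encodes JunD, the Jun protein of resting cells. Its levels were 32.4, 46.0 and 53.5 CPM at 1 dpi, 16.9, 13.3 and 19.8 CPM at 2 dpi, 13.8, 47.4 and 21.6 CPM at 4 dpi, and 181, 133 and 43.9 CPM at 7 dpi. The 2 dpi libraries were below all those at 1 dpi, and 7 dpi replicates 1 and 2 stood above every earlier library. In contrast, 7 dpi replicate 3 lay within the range of 1 dpi and below 4 dpi replicate 2, so the 4 and 7 dpi ranges overlapped. Jund rose between 7 and 4 dpi (log2FC 2.11, SE 0.45, adjusted p = 0.0038, edgeR) and was called in each of the 23 alternatives tried. With 1 library left out, this log2FC lay between 1.68 (without 7 dpi replicate 1) and 2.74 (without 4 dpi replicate 2). Jund was also higher at 7 than at 1 dpi (log2FC 1.44, SE 0.44, adjusted p = 0.0121), a call that was lost without 7 dpi replicate 1 (log2FC 1.01, adjusted p = 0.0785). The fall between 2 and 1 dpi (log2FC -1.40, SE 0.44, adjusted p = 0.0465) was lost without any single library of 1 or 2 dpi or without 4 dpi replicate 3, with adjusted p up to 0.154. It was also lost with DESeq2 (adjusted p = 0.0693), limma-voom (0.068), upper-quartile factors (0.0533) and the replicate number as a block (0.0532). In all, the call of this fall was kept in 12 and lost in 11 of the 23 alternatives. It was kept with the 6 libraries of 1 and 2 dpi alone (adjusted p = 0.000391, edgeR). Of its exonic bases 52.6% are shared with the antisense gene Gm11175, which had 0 counts in every library. How reads in shared bases were assigned is not given, so these 0 counts do not show that Jund lost no reads there.

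Atf3 encodes a stress-induced factor known to dampen cytokine genes in macrophages. It measured 307, 268 and 387 CPM at 1 dpi, 285, 268 and 307 CPM at 2 dpi, 178, 339 and 218 CPM at 4 dpi, and 337, 519 and 293 CPM at 7 dpi. The ranges overlapped in each of the 4 comparisons, and the largest log2FC was 0.64 between 7 and 4 dpi (SE 0.26, adjusted p = 0.0731, edgeR). With 1 library left out it lay between 0.38 (without 7 dpi replicate 2) and 0.93 (without 4 dpi replicate 2, adjusted p = 0.0188). Batf, a partner of Jun proteins and interferon regulatory factors in lymphocytes and dendritic cells, was low, at 2.40 to 8.29 CPM over the 12 libraries. Its log2FC lay between -0.57 and 0.76 with adjusted p of 0.124 or more (edgeR).

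Maff encodes a small Maf protein, without a transactivation domain, that is induced by stress and inflammatory cytokines. It was at 51.6, 31.6 and 27.9 CPM at 1 dpi, 15.5, 17.1 and 13.3 CPM at 2 dpi, 9.01, 5.02 and 9.04 CPM at 4 dpi, and 9.61, 16.3 and 7.52 CPM at 7 dpi. Each day up to 4 dpi lay wholly below the day before, and the 7 dpi libraries overlapped with those of 2 and 4 dpi. Maff fell between 2 and 1 dpi (log2FC -1.27, SE 0.30, adjusted p = 0.0108, edgeR) and was lower at 7 than at 1 dpi (log2FC -1.73, SE 0.31, adjusted p = 0.000228), the second in each of the 23 alternatives. The first was lost without 1 dpi replicate 1 (log2FC -0.95, adjusted p = 0.0638) and without 2 dpi replicate 3 (adjusted p = 0.0555). By edgeR, the change of Maff between 4 and 2 dpi passed the FDR only (log2FC -0.99, SE 0.31, adjusted p = 0.0315). Without 4 dpi replicate 1 the log2FC was -1.12 and Maff was called. The FDR was missed without any single 2 dpi library, and without 4 dpi replicate 2 (log2FC -0.76) or 3, with adjusted p up to 0.145.

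**Figure D4:**
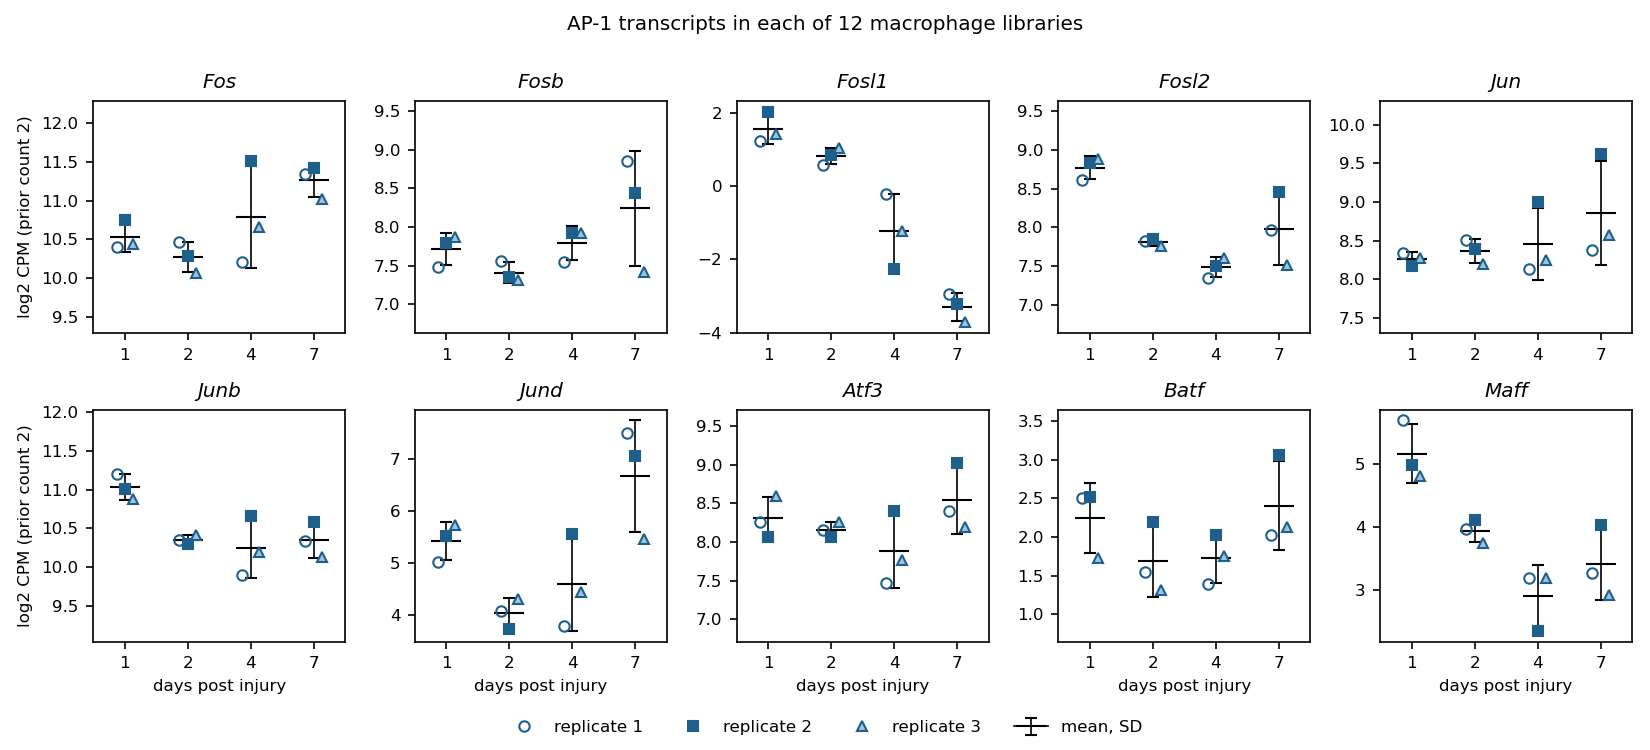
Log2 CPM (y-axis, prior count of 2, axes differ between panels) of the 10 members in each of the 12 libraries by days post injury (x-axis), with bars for mean and SD of 3 libraries. The 1 dpi libraries of Fosl2, Junb and Maff sit above all later ones, Fosl1 declines on each day, and 7 dpi replicates 1 and 2 are the highest of Jund.

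The same library was the highest, or the lowest, for most members at 4 and at 7 dpi. No replicate of 1 dpi was the highest for more than 4 members or the lowest for more than 5. Replicate 3 of 2 dpi was the highest for 4 and the lowest for 6. The same was not counted over all genes, so it is not known whether this was particular to AP-1. At 4 dpi, replicate 2 was the highest library for 6 of the 10 members and replicate 1 the lowest for 8. At 7 dpi, replicate 2 was the highest for 7 members and replicate 3 the lowest for 8. Beside these, mitochondrial genes took 12.5% of the counts outside the unnamed gene in 4 dpi replicate 2, 6.26% in replicate 1 and 11.4% in replicate 3. At 7 dpi they took 18.9% in replicate 2, 6.62% in replicate 1 and 9.47% in replicate 3. The summed CPM of the other immediate-early genes described below was 8129 in 4 dpi replicate 2, 5566 in replicate 1 and 6245 in replicate 3. It was 10277 in 7 dpi replicate 2, 5577 in replicate 1 and 5621 in replicate 3. Replicate 3 of 4 dpi was thus near replicate 2 in mitochondrial share, but it was the highest library for only 3 members. At 7 dpi replicate 1 was thus the lowest library on both measures, but it was the lowest for only 2 members. The part of either in the members' spread was not tested.

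Other immediate-early genes, most of them also known to be induced by warm tissue digestion, were listed beside AP-1 because all libraries went through that step. Of 24 tested, 0 were called higher and 6 lower between 2 and 1 dpi, 1 higher and 5 lower between 4 and 2 dpi, 9 higher and 1 lower between 7 and 4 dpi, and 6 higher and 7 lower between 7 and 1 dpi. At an unadjusted p under 0.05, 0 were higher in the first of these (edgeR). Of all genes tested, 5.09% were called higher and 3.97% lower in the first comparison, and 8.02% and 3.88% in the second. The third had 7.44% and 5.2%, and the last 19.7% and 14%. The summed level of the 24 genes was 12842 to 14003 CPM at 1 dpi, 8218 to 8551 CPM at 2 dpi, 5566 to 8129 CPM at 4 dpi and 5577 to 10277 CPM at 7 dpi. The sum at 1 dpi was thus above that of each later library, as for Junb and Fosl2 and unlike Fos.

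Single genes of that list went both ways. Ier3, a survival factor of stimulated cells, averaged 112 CPM at 7 dpi and 237 CPM at 4 dpi (log2FC -1.07, SE 0.26, adjusted p = 0.00881, edgeR). Nfkbia, the inhibitor of NF-κB, was lower at 7 than at 1 dpi (log2FC -2.48, SE 0.28), as were Ier3 (-3.63, SE 0.29) and Egr2, a zinc finger factor of the early growth response (-2.16, SE 0.26). Klf2, a zinc finger factor that restrains inflammatory genes, averaged 112 ± 76.6 CPM at 7 dpi and 15.7 ± 8.27 CPM at 4 dpi (SD, n = 3 each, log2FC 2.85, SE 0.44, adjusted p = 0.000732). The heat shock gene Hspa1a averaged 283 ± 256 CPM at 7 dpi and 37.2 ± 2.61 CPM at 4 dpi (SD, n = 3 each, log2FC 2.93, SE 0.44, adjusted p = 0.000665), beside the rise of Jund in the same comparison. The 7 dpi libraries of Hspa1a were thus very unequal, and their range overlapped with that of 1 dpi.

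Of 17 basic leucine zipper genes outside the 10 members, 16 were tested. Between 2 and 1 dpi 0 were called higher and 2 lower, between 4 and 2 dpi 2 higher and 1 lower, between 7 and 4 dpi 3 higher and 0 lower, and between 7 and 1 dpi 2 higher and 1 lower. At an unadjusted p under 0.05, edgeR had 0 higher in the first comparison and 1 lower in the third. Beside these counts, 5.09% of all genes tested were called higher and 3.97% lower in the first comparison, and 8.02% and 3.88% in the second. The third had 7.44% and 5.2%, and the last 19.7% and 14%. Jdp2, which encodes a Jun dimerization partner that represses AP-1 sites, was lower at 2 than at 1 dpi (log2FC -1.11, SE 0.32, adjusted p = 0.032, edgeR) and higher at 7 than at 4 dpi (log2FC 1.38, SE 0.32, adjusted p = 0.00624), the same directions as Jund. Batf3, a factor of conventional dendritic cell development, averaged 6.23 CPM at 7 dpi and 1.15 CPM at 1 dpi (log2FC 2.43, SE 0.44, adjusted p = 0.000305), beside dendritic cell markers that summed to 5.02 to 11.6 CPM at 7 dpi and 2.72 to 5.89 CPM at 1 dpi. Atf4, the main factor of the integrated stress response, fell to 20.8 CPM at 7 dpi, against 85.5 CPM at 1 dpi (log2FC -2.04, SE 0.21, adjusted p = 1.77e-06). Creb5, a relative of Atf2 that can pair with Jun, rose to 39.8 CPM at 7 dpi, against 13.5 CPM at 1 dpi (log2FC 1.55, SE 0.28, adjusted p = 0.00024).

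The kinases and factors that switch on AP-1 genes and proteins were listed next. Of 23 tested, 1 was called higher and 0 lower between 2 and 1 dpi, 2 and 0 between 4 and 2 dpi, 2 and 0 between 7 and 4 dpi, and 3 and 4 between 7 and 1 dpi. The 0 counts stand beside 2, 7 and 4 genes lower at an unadjusted p under 0.05 (edgeR). Mapk14, which encodes the stress kinase p38 alpha, rose between 4 and 2 dpi (log2FC 1.02, SE 0.20, adjusted p = 0.00253) and between 7 and 4 dpi (log2FC 1.17, SE 0.20, adjusted p = 0.00136), and averaged 69.1 CPM at 7 dpi and 12.0 CPM at 1 dpi. Map2k6, a kinase that activates p38, averaged 2.53 CPM at 7 dpi and 0.111 CPM at 1 dpi. The kinases that activate ERK were lower, with Map2k1 at 45.2 CPM at 7 dpi and 102 CPM at 1 dpi (log2FC -1.17, SE 0.21, adjusted p = 0.000246) and Map2k2 at 55.1 and 134 CPM (log2FC -1.28, SE 0.16, adjusted p = 1.29e-05).

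MAP kinase phosphatases switch these kinases off and are themselves induced by them. Of 9 tested, 0 were called higher and 2 lower between 2 and 1 dpi, 0 in either direction between 4 and 2 dpi, 2 higher and 0 lower between 7 and 4 dpi, and 3 higher and 2 lower between 7 and 1 dpi. At an unadjusted p under 0.05, edgeR had 3 higher in the first comparison, 2 higher and 1 lower in the second and 0 lower in the third. All genes tested had 5.09% called higher and 3.97% lower in the first comparison, and 8.02% and 3.88% in the second. The third had 7.44% and 5.2%, and the last 19.7% and 14%. Dusp1, which acts on p38 and JNK, averaged 1811 CPM at 7 dpi and 4124 CPM at 1 dpi (log2FC -1.19, SE 0.28, adjusted p = 0.00234), and Dusp5, which acts on ERK, 56.3 and 181 CPM (log2FC -1.68, SE 0.23, adjusted p = 2.45e-05). Dusp2, a nuclear phosphatase of immune cells, averaged 103 CPM at 7 dpi and 26.0 CPM at 1 dpi (log2FC 1.98, SE 0.35, adjusted p = 0.000226).

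The list of genes known from other work to be AP-1 targets was, like the others, chosen with earlier results of these data known. Its counts are therefore a description and not a test. Most of its genes were lower at 7 than at 1 dpi. Of 20 tested, 2 were called higher and 8 lower between 2 and 1 dpi, 1 and 10 between 4 and 2 dpi, 1 and 4 between 7 and 4 dpi, and 0 and 15 between 7 and 1 dpi, with 2 higher in the last at an unadjusted p under 0.05 (edgeR). Over all genes tested, the shares called higher and lower were 5.09% and 3.97%, 8.02% and 3.88%, 7.44% and 5.2%, and 19.7% and 14% in the same order. The median log2FC of the target genes was -1.25, -1.08, -0.17 and -1.87 in that order. The inducible cyclooxygenase gene Ptgs2 averaged 79.6 CPM at 7 dpi and 1186 CPM at 1 dpi (log2FC -3.90, SE 0.29, adjusted p = 1.11e-07), the cytokine gene Tnf 38.3 and 547 CPM (log2FC -3.84, SE 0.39, adjusted p = 1.58e-06) and the chemokine gene Ccl2 21.1 and 2016 CPM (log2FC -6.58, SE 0.58, adjusted p = 4.44e-07). Mmp13, a collagenase gene, was higher at 4 than at 2 dpi (log2FC 1.63, SE 0.45, adjusted p = 0.0172), and the cyclin gene Ccnd1 at 2 than at 1 dpi (log2FC 3.23, SE 0.54). The cytokine gene Il1b was lower at 2 than at 1 dpi (log2FC -2.47, SE 0.31). It was higher at 7 than at 4 dpi (log2FC 1.63, SE 0.30, adjusted p = 0.00174, edgeR). These genes answer to other factors too, among them NF-κB, and whether AP-1 was bound at any of them is not measured here.

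**Figure D5:**
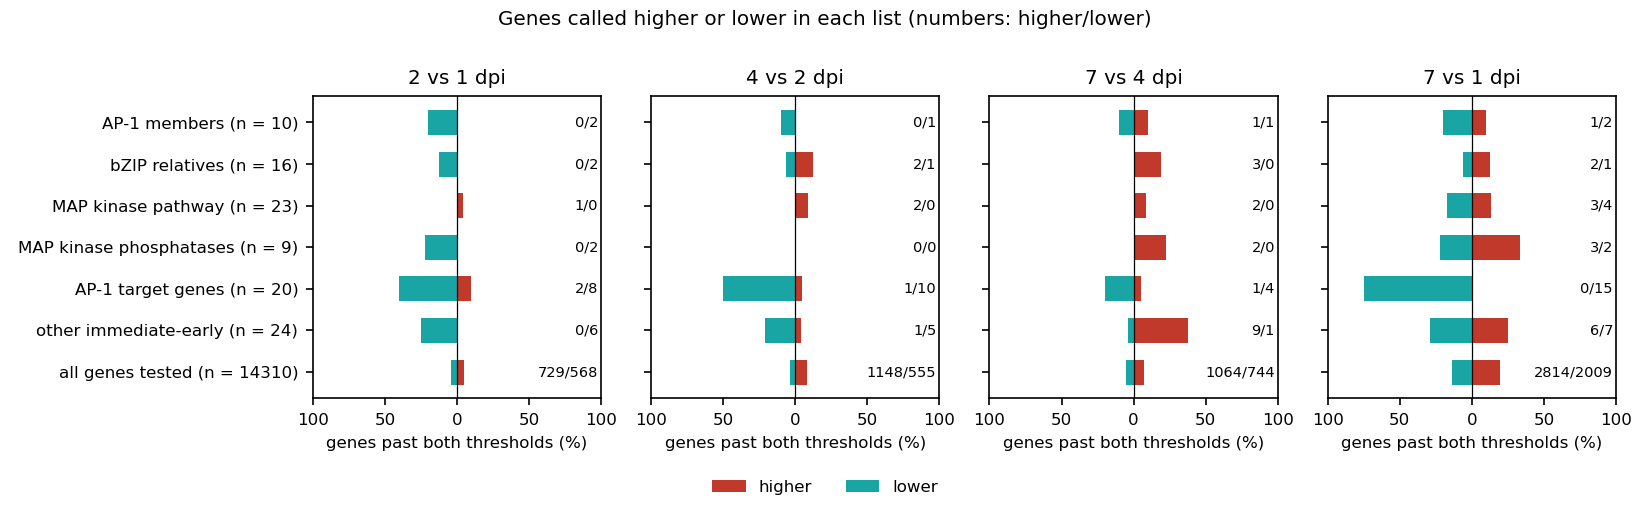
Share of genes called higher (red, right) or lower (turquoise, left) in each list (rows, number tested in brackets) and in all 14310 genes tested, in 4 comparisons (panels), with the counts at the right as higher/lower. Of the AP-1 target genes 15 of 20 were lower between 7 and 1 dpi, while of the 10 AP-1 members 2 were and of all genes 14%. The lists were chosen with earlier results of these data known.

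For each member the genes of most similar profile were sought among 4766 others (mean log2 CPM 4 or more) by Pearson's r of log2 CPM over the 12 libraries. The libraries share their scaling and fall into 4 days, so r is given as a description. Jund was most like Irf2bp2 (r = 0.979), Prr14l (0.96) and the immediate-early gene Ier2 (0.948). Junb was most like Nfkbiz (0.922), which encodes an inducible NF-κB cofactor, Zfp36 (0.919), which encodes an mRNA-destabilising protein, and Arrdc4 (0.915). Maff was nearest to Arl5b (0.973), Rabgef1 (0.971) and Ets2 (0.97), and Fosl2 to Hivep2 (0.971), Zeb2 (0.962) and the cytokine gene Il1a (0.958). Fosl1 followed Acly (0.987), Sf1 (0.98) and Osbp (0.978). Fos was nearest to Vgll4 (0.935), Erbin (0.932) and Zmym5 (0.932), Fosb to Dennd5a (0.933), Znrf2 (0.918) and Fam168b (0.906), and Batf to Ssh2 (0.934), Cd300ld (0.859) and mt-Nd6 (0.856). The lowest best matches were those of Jun, with the lectin gene Clec10a (0.88), Rcsd1 (0.857) and Inpp4a (0.847), and Atf3, with Cd83 (0.833), Zfand5 (0.812) and Prr14l (0.809).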

How the data were processed

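Macrophage RNA was measured in 12 RNA-seq libraries. The authors trimmed the paired reads (Trim Galore 0.6.6), aligned them to GRCm39 (HISAT2 2.2.1) and counted them per gene (Subread 2.0.1), and deposited 1 table of unnormalised read counts with 55414 Ensembl gene IDs. The oligo-dT primed Smart-seq2/3 libraries do not mark the strand, and how reads in bases shared by 2 genes were assigned is not given in the sources used here. Between 76.6% and 85.5% of counts from 1 to 20 were even in each library. If the mates of a pair were counted one by one, small counts overstate fragments, so an alternative divided all counts by 2. Symbols and exonic lengths (52133 IDs) came from GENCODE vM21 on GRCm38, joined by ID, so no gene coordinates are given.

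The model was fitted with edgeR 4.0.16 (R 4.3.3), using filterByExpr (14310 genes), TMM factors, 1 coefficient per day in all 12 libraries, the quasi-likelihood F test, and Benjamini-Hochberg adjustment within a comparison. The thresholds are those of the study. Log2 CPM used a prior count of 2. A test on simulated data with known changes was run first. Alternatives were RLE and upper-quartile factors, 2 other filters, DESeq2 1.42.0, limma-voom (limma 3.58.1), a fit of the 6 libraries alone, a replicate block, no fold threshold, halved counts, leaving out the unnamed gene and mitochondrial genes, and each library in turn. Motifs were searched on both strands of RefSeq windows. The TATA box, the CRE core and the CRE with a free base were added after the sequences were seen.

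The 10 members and all gene lists were chosen with earlier results of these data known. Named are the 10 members, the 3 genes nearest to each in profile, and from each other list genes among the 3 of smallest p called in a direction.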

Additional observations from a re-analysis of the deposited data

How the results depend on the processing

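Over 23 alternatives, 919 log2FC of members were compared with those reported, of which 877 kept direction and side of the thresholds, 20 lost a call, 10 gained one and 12 changed sign. Members called lower between 2 and 1 dpi numbered 1 in place of 2 with upper-quartile factors, limma-voom or the replicate block, 3 with RLE factors or no fold threshold, and 0 to 2 with 1 library left out. Those called lower between 4 and 2 dpi numbered 2 in place of 1 with limma-voom or no fold threshold, and 0 to 2 with 1 library left out. With only the 6 libraries compared, 0 were lower between 7 and 4 dpi, because Fosl1 did not pass the count filter of that fit. With no fold threshold 2 were higher and 4 lower between 7 and 1 dpi, and the number higher was 0 to 1 with 1 library left out. The signs that changed belonged to log2FC that were not called, the largest of them 0.45 (Jun between 7 and 4 dpi). Junb between 4 and 2 dpi was 0.012 with upper-quartile factors. With 1 library left out, values ranged from -0.27 to 0.0092 for Atf3 between 2 and 1 dpi, from -0.18 to 0.30 for Jun, -0.30 to 0.094 for Junb and -0.15 to 0.31 for Batf between 4 and 2 dpi, from -0.018 to 0.75 for Jun and -0.11 to 0.29 for Junb between 7 and 4 dpi, and from -0.00054 to 0.48 for Atf3 and -0.18 to 0.40 for Batf between 7 and 1 dpi. Upper-quartile factors moved the median log2FC of all genes by 0.10 between 7 and 4 dpi and by 0.19 between 7 and 1 dpi. The cause of these differences was not tested.

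The labels do not say what a replicate number shares. The correlation of deviations from the day means was between -0.13 and 0.13 for the 18 pairs with the same number, with 1 of 18 over 0.1, so the numbers were not used to pair libraries. With the replicate number as a block, 1 member was lower between 2 and 1 dpi, since Jund had an adjusted p of 0.0532 (edgeR), and the other counts of members did not change.

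Other scalings cannot change the shares of members within a library, but plain CPM in place of CPM per kb gave Fos 69.5% of the Fos family at 1 dpi and 81.2% at 7 dpi, and Junb 85.6% of the Jun family at 1 dpi. Fosl1, with 351 counts in all, and Batf, with 1329, have the least depth behind their values.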
